A study of Mus musculus with 42 samples.

Results

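The expression of 9 genes of the extracellular matrix and its regulators was followed through 42 RNA sequencing libraries of mouse tissue: the matricellular genes Ccn1, Ccn2, Thbs1 and Thbs2, fibronectin (Fn1), the fibrillar collagens Col1a1, Col3a1 and Col5a1, and the collagen-binding protein Sparc. They are 9 of the 49585 genes in the deposited count table. The members were chosen by gene name from results of the same libraries, namely the values of Ccn1 and Thbs1 in irradiated Het against Null thymus and of Col5a1 and Fn1 in unirradiated thymus of Het and AD against Null mice. Values in those contrasts, and in contrasts that share their libraries, are therefore given as descriptions without a p-value.

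All mice were 4 weeks old, were of a mixed background of BALB/C and C57BL6 in equal parts, and carried germline changes of p53. The genotypes were p53-null (Null), p53 +/- (Het, with a wild-type allele over a null allele), p53 AD/- and p53 RP/- (AD and RP, each a mutant allele over a null allele), so the Het, AD and RP mice shared 1 null allele and no mouse with 2 wild-type alleles was included. Thymus collected 4 h after irradiation came from 4 mice of each of the 4 genotypes. Unirradiated, or basal, thymus was taken from 2 Null, 3 Het and 3 AD animals. For each of the other basal organs, which were liver, pancreas and intestine, there were 3 Null and 3 AD animals. A library carries the genotype and number of its mouse (AD-727), and the number of mice per group is the n of every value below.

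Matricellular proteins are secreted into the matrix to signal to cells more than to bear load. The CCN proteins and thrombospondins bind integrins, heparan sulfate, growth factors and their latent complexes, and their genes respond quickly to serum, stretch and the YAP and SRF transcription factors. Collagens and fibronectin form the fibres themselves, in the thymus laid down largely by the capsule, the septa and the vessels around a mass of thymocytes that make little matrix. The libraries are from whole organs, so fewer cells of a type and less RNA per cell cannot be told apart.

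Upstream sequences of 3 members are shown: Ccn1, which differed strongly between irradiated Het and Null thymus, and Col3a1 and Thbs2, which differed less. Each is the 250 bases before the RefSeq transcription start on GRCm38.p6, 5′ to 3′ on the gene's strand, at chr3:145649986-145650235 (minus) for Ccn1, chr1:45311288-45311537 (plus) for Col3a1 and chr17:14694263-14694512 (minus) for Thbs2. Capitals mark matches, on either strand, to CATTCC (the core bound by TEAD factors), CGTCA (a half-site of CREB) and TATAAA.
Ccn1: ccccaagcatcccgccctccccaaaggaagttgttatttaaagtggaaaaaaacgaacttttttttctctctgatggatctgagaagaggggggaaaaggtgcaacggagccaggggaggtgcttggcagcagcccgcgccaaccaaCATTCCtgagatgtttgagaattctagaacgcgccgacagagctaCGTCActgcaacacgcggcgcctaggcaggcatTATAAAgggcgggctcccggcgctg
Col3a1: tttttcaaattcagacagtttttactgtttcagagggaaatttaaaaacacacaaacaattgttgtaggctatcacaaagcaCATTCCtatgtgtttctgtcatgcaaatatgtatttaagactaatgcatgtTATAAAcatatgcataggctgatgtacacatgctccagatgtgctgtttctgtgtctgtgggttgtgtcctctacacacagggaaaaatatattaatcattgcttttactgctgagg
Thbs2: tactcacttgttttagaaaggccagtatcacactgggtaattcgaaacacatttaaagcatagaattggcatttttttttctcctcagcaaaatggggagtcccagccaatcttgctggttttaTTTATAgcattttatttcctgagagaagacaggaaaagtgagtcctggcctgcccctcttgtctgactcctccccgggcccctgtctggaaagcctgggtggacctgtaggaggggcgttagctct

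In Ccn1 the match to CATTCC began 103 bases before the start, that to CGTCA 58 bases before it and that to TATAAA 25 bases before it. Col3a1 held CATTCC 168 bases and TATAAA 117 bases before its start, and Thbs2 held TATAAA on the other strand 126 bases before it. Of 32851 mouse promoter windows of this length, 12.6% held CATTCC, 17.8% CGTCA and 12.4% TATAAA, so none of these matches is rare. The SP1 motif GGGCGG (32.7% of windows) matched Ccn1 at 2 places, the AP-1 motif TGANTCA (6.7%) and the CArG box of SRF (1.5%) matched none of the 3, and no motif matches overlapped. A p53 half-site (7.1% of windows) was in none of the 3 windows and was found once in that of Sparc, 219 bases before its start. GC content was 54.8% in Ccn1 with 15 CpG, 35.2% in Col3a1 with 0 CpG and 46.8% in Thbs2 with 3 CpG.

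The libraries held 19861977 to 34772519 counts, and each of the 9 genes passed the filter on low counts in every fit. Their counts ranged from 8 reads of Ccn1 in a pancreas library to 64145 reads of Fn1 in a liver library. Levels are given as CPM (counts scaled for library size) on a single TMM scale over all libraries, and as CPM per kb of exon where genes are compared. Differences are on the log2 scale ± SE from edgeR's quasi-likelihood fit, and a gene is called where its Benjamini-Hochberg adjusted p over all genes tested is under 0.05. Of the genes that check the labels, Trp53 stood at 12.7 to 14.1 CPM in irradiated Null thymus and at 20.4 to 25.9 in the other 3 irradiated groups, and the p53 target Cdkn1a at 26.2 to 30.9 CPM in irradiated Het thymus against 2.24 to 3.33 in Null, AD and RP. In basal tissue of AD against Null mice Trp53 stood at 14.7 to 15.5 against 9.54 to 10.1 CPM in intestine, at 7.65 ± 0.339 against 6.95 ± 1.21 CPM (mean ± SD, n = 3 each) in liver and at 7.36 to 11.2 against 10.8 to 12.3 CPM in pancreas. Its level thus overlapped between genotypes in liver and pancreas, where AD was on average the lower in pancreas, and it does not check the labels there. Markers of thymocytes summed to 6330 CPM or more in every thymus library.

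Irradiated thymus of Het mice was set against that of Null mice to show which members were higher with a wild-type allele after irradiation. Of the 9 members 4 were called, and they were higher in Het: Ccn1, Thbs1, Ccn2 and Fn1, against 9.79% of 22206 genes called higher. The same 4 had every Het library above every Null library, a state that 10.4% of genes shared. The other 5 members also had values above 0 without a call.

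Ccn1 encodes a secreted integrin ligand of the CCN family, at chromosome 3, 145646976 to 145649981 (GRCm38). It stood at 47.5, 69.0, 42.9 and 82.0 CPM in the 4 Het libraries and at 2.13, 3.15, 5.99 and 4.03 CPM in the 4 Null libraries. The difference was 3.96 ± 0.27, or 15.5-fold, and the lowest Het library was above the highest Null library by a wide margin. Behind these levels lay 1932 to 3222 reads in Het and 98 to 292 in Null. In AD thymus Ccn1 stood at 3.42, 3.88, 3.99 and 4.39 CPM, and in RP thymus at 4.14, 4.12, 4.86 and 3.55 CPM. Both mutants thus lay within the Null range.

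Thbs1 encodes thrombospondin 1, a platelet and matrix protein that activates latent TGF-β, and lies on chromosome 2 from 118111876 to 118127133. Its 4 Het libraries held 67.9, 132, 58.1 and 153 CPM, and its Null libraries 5.49, 5.61, 9.59 and 9.40 CPM. The difference was 3.76 ± 0.37, or 13.5-fold. Het-595 and Het-631 were the high libraries for Thbs1 and also for Ccn1, and Het-603 was the lowest for both. In AD the values were 5.81, 11.6, 6.09 and 8.94 CPM and in RP 5.99, 10.3, 8.19 and 8.91 CPM, so AD-633 and RP-653 reached just beyond the highest Null library and no mutant library came near Het.

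Ccn2, the other CCN gene of the set and a widely used readout of YAP and TGF-β signalling, lies on chromosome 10 from 24595442 to 24598683. It was scarce in thymus, at 4.65, 5.20, 4.46 and 5.42 CPM in Het and 1.11, 1.06, 2.07 and 2.04 CPM in Null, from 193 to 216 and from 48 to 101 reads. The difference was 1.63 ± 0.28, or 3.09-fold, and the groups did not overlap. AD libraries held 1.21, 1.59, 0.992 and 2.57 CPM and RP libraries 1.85, 2.02, 1.71 and 1.02 CPM. AD-727 was the only mutant library above the Null range.

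Thbs2 encodes the paralogous thrombospondin 2 and lies on chromosome 17 from 14665500 to 14694235. It stood at 11.4, 9.38, 10.4 and 13.5 CPM in Het and at 10.4, 7.38, 8.79 and 9.67 CPM in Null, which overlapped, and the difference was 0.28 ± 0.12 without a call. Per kb of exon the ratio of Thbs1 to Thbs2 was 10.6 in irradiated Het thymus (SD 4.81) and 0.966 in Null (SD 0.286), 1.24 in AD and 1.21 in RP. The ratio of Ccn1 to Ccn2 per kb was 17.1 in Het (SD 3.68) and 3.45 in Null (SD 0.799). The pair of thrombospondins and the pair of CCN genes therefore changed unequally within these libraries.

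Fn1 encodes fibronectin, the adhesive glycoprotein on which collagen fibrils assemble, and lies on chromosome 1 from 71585520 to 71653200. The Het libraries held 95.2, 98.1, 70.4 and 147 CPM and the Null libraries 50.8, 42.2, 67.7 and 67.8 CPM. The groups were separated by little, since the lowest Het library stood just above the highest Null library, and the difference was 0.83 ± 0.25, or 1.78-fold. The call of Fn1 was lost without Het-595, Het-631, Null-593 or Null-604, with values from 0.60 to 0.99 over the libraries left out in turn. Without any of these 4 libraries, or with no filter on low counts, the count of called members was 3, and with a sex covariate it was 5, with Col5a1 added. AD libraries (46.6, 63.5, 60.4 and 84.7 CPM) and RP libraries (47.7, 65.4, 61.7 and 87.1 CPM) spread over the Null range and past it.

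For the collagens and Sparc the fold difference between Het and Null was smaller than that between the lowest and highest library of either group. Col3a1, which forms the thin reticular fibrils of soft organs, stood at 272, 203, 169 and 414 CPM in Het and 161, 110, 256 and 251 CPM in Null, with a difference of 0.43 ± 0.32. Col1a1, the main collagen of dense connective tissue, differed by 0.48 ± 0.53, Col5a1, which nucleates collagen fibrils, by 0.55 ± 0.24, and Sparc, a collagen chaperone and matricellular protein, by 0.45 ± 0.28. None of the 4 was called, and the Het and Null libraries overlapped for each. For all 4 genes Het-631 was the highest library of irradiated Het thymus and Null-604 the lowest of Null. Without Het-631 the differences of Col1a1 and Col3a1 came to their lowest over the libraries left out in turn, 0.04 and 0.12.

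**Figure D1:**
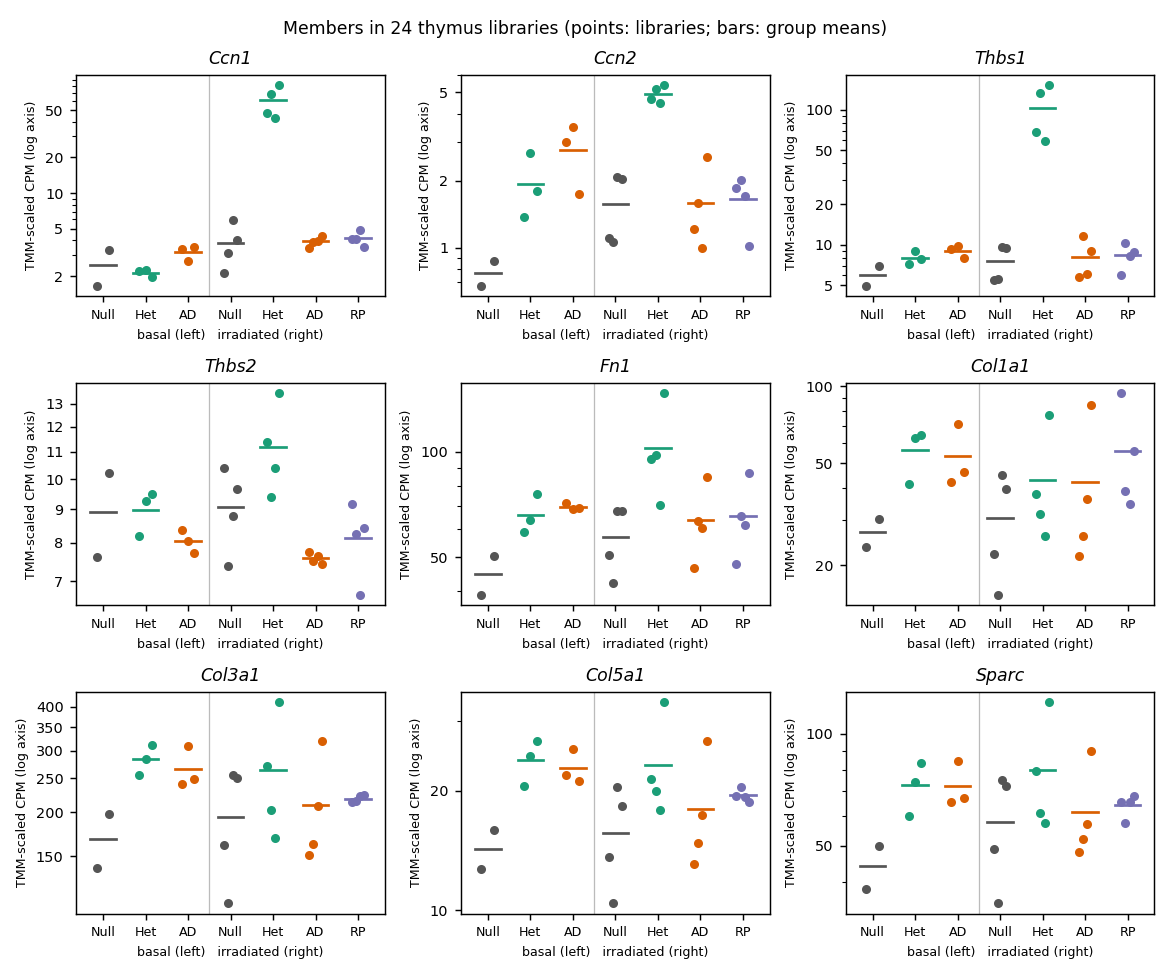
Level of each member in the 24 thymus libraries, as TMM-scaled CPM on a log axis, with basal groups left and irradiated groups right of the grey line; points are libraries and bars are group means. The 4 irradiated Het libraries stand at 42.9 to 82.0 CPM for Ccn1 and 58.1 to 153 CPM for Thbs1, above all other thymus libraries, while the collagens and Sparc overlap between irradiated groups.

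Irradiated AD and RP thymus were each compared with the same Null libraries. No member was called in AD (0.027% of genes were) or in RP (0.0315%). Differences from Null lay from -0.26 (Thbs2) to 0.46 ± 0.52 (Col1a1) in AD and from -0.18 (Thbs2) to 0.84 ± 0.53 (Col1a1) in RP. The RP value of Col1a1 came with RP-649, which held 93.9 CPM of Col1a1 against 39.0, 34.6 and 55.7 CPM in the other RP libraries, and without RP-649 it was 0.48.

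Against Het, 4 members were called lower in AD (8.27% of genes were) and 4 in RP (10.2%), and in both they were Ccn1, Thbs1, Ccn2 and Thbs2. Ccn1 differed by -3.93 ± 0.27 in AD and by -3.86 ± 0.27 in RP. Thbs1 differed by -3.65 ± 0.37 and -3.62 ± 0.37, and Ccn2 by -1.61 ± 0.28 and -1.58 ± 0.28. Thbs2 differed by -0.54 ± 0.12 and -0.46 ± 0.12, and Fn1 by -0.67 ± 0.25 and -0.65 ± 0.25 without a call. Without RP-654 the call of Thbs2 in RP was lost (-0.38), and Fn1 was called lower in both under DESeq2, with a sex covariate and without Het-603 (-0.83 in AD and -0.81 in RP), and in RP without RP-656 (-0.83). These comparisons share the Het libraries with those above, so they hold no separate evidence on Het.

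AD and RP thymus, whose difference had no part in the choice of members, were tested against each other. No member was called by edgeR, with adjusted p from 0.902 to 0.995, nor was any gene (0% of 22206, with 1525 genes at an unadjusted p under 0.05 and 0 of them members). The differences of AD from RP ranged from -0.39 ± 0.52 (Col1a1) to -0.02 ± 0.25 (Fn1), and for Ccn1 and Thbs1 they were -0.07 ± 0.27 and -0.02 ± 0.35. The libraries of the 2 mutants overlapped for all 9 members. That no difference was called does not show that the alleles act alike, and the standard errors ran from 0.12 for Thbs2 to 0.52 for Col1a1.

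**Figure D2:**
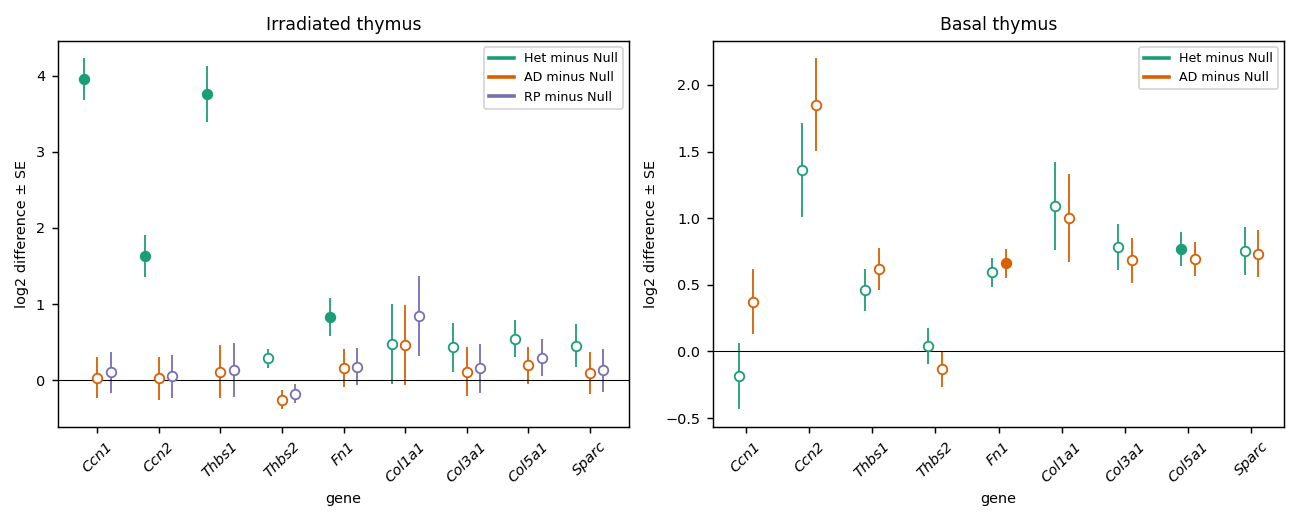
Log2 differences from Null (vertical axis, ± SE) for the 9 members in irradiated thymus (left: Het, AD, RP) and basal thymus (right: Het, AD); filled points were called and open points were not, and within a panel all differences share the Null libraries. In irradiated thymus Het was called higher for Ccn1 (3.96), Thbs1 (3.76), Ccn2 (1.63) and Fn1 (0.83), and AD and RP for no member. For Fn1 the Het libraries (from 70.4 CPM) overlapped those of AD (up to 84.7 CPM) and RP (up to 87.1 CPM). In basal thymus 1 member was called in each comparison.

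Genes that act with the members, in lists drawn up with earlier results of these data known, were read in the same Het against Null contrast. There 9.79% of 22206 genes were called higher and 9.38% lower. Of 19 proteases of the matrix and their inhibitors 13 were called higher and 0 lower, with a median of 0.65 beside -0.01 over all genes. They included the aggrecanase Adamts1 (2.18 ± 0.25) and urokinase, Plau (1.12 ± 0.12). Of 24 YAP and TEAD targets 13 were higher and 0 lower (median 0.43), led by tissue factor F3 (2.65 ± 0.27), Tead1 itself (1.27 ± 0.25) and Gadd45b (1.17 ± 0.14). Of 16 SRF targets 9 were higher and 0 lower (median 0.75), with Fos at 2.998 ± 0.18, Junb at 1.32 ± 0.14 and smooth muscle actin Acta2 at 1.08 ± 0.35. In AD and RP 0 genes of these 3 lists were called against Null, where 0.027% and 0.0315% of all genes were.

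Among structural partners, 8 of 16 other collagens were called higher and 0 lower (median 0.46), beside 9.79% and 9.38% of all genes. They included Col12a1, which decorates fibrils, at 1.12 ± 0.12 and the basement membrane chains Col4a2 (0.81 ± 0.17) and Col4a1 (0.77 ± 0.15). Of 16 collagen-processing genes 6 were higher, among them the lysyl hydroxylase Plod2 (0.83 ± 0.11) and the crosslinking enzyme Lox (0.70 ± 0.13), and Crtap of the prolyl hydroxylation complex was lower (-0.45 ± 0.12). Of 16 other matricellular and proteoglycan genes 4 were higher, such as tenascin C, Tnc (1.07 ± 0.11), perlecan, Hspg2 (0.77 ± 0.23), and versican, Vcan (0.64 ± 0.20). Of the remaining relatives, Ccn6 was higher (1.03 ± 0.22) among 4 CCN genes, and 0 of 3 thrombospondin genes were called.

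Of 20 receptors for these ligands 6 were higher and 0 lower, with the syndecan Sdc4 at 1.04 ± 0.10, the endocytic receptor Lrp1 at 0.95 ± 0.15 and the integrin chain Itga1 at 0.67 ± 0.14. Of 18 genes of the TGF-β pathway 5 were higher and 0 lower, and the largest was the co-receptor endoglin, Eng (1.24 ± 0.10). The medians of these 2 lists, 0.20 and 0.18, were lower than those of the protease and SRF lists. Their counts stand beside 9.79% of all genes called higher.

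Markers of the cells that make matrix moved in part with these values, in a contrast where 9.79% of all genes were called higher. Summed levels in irradiated Het against Null thymus were 174 to 205 against 103 to 142 CPM for 8 pericyte and smooth muscle markers (2 called higher), and 160 to 219 against 138 to 157 CPM for 12 endothelial markers (4 called higher). Fibroblast markers without Thy1, a gene that thymocytes also express, summed to 404 to 514 against 363 to 420 CPM over 15 genes, with 1 of 15 tested genes of the full list called higher and Thy1 called lower (-0.28 ± 0.06). The 12 markers of thymic epithelium summed to 1540 to 1810 against 977 to 1080 CPM, with 7 called higher, and the 12 macrophage markers to 219 to 433 against 229 to 304 CPM, with 3 called higher. The 8 platelet markers summed to 6.99 to 11.2 against 5.55 to 7.34 CPM, with 1 of 5 tested called higher. With 1 gene called higher in each, the fibroblast and platelet lists cannot be told from the share of all genes. No marker of these lists was at 0 in either group, and the part of these cells in the values of the 9 members was not tested.

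The response to irradiation was read by setting irradiated against basal thymus of the same genotype, from different mice. In Het thymus 3 members were called higher (8.74% of 23605 genes were): Ccn1 at 4.80 ± 0.32, Thbs1 at 3.67 ± 0.37 and Ccn2 at 1.33 ± 0.31. Basal Het thymus held 2.25 CPM or less of Ccn1 and 7.15, 8.97 and 7.88 CPM of Thbs1, far below every irradiated Het library. Fn1 stood 0.62 ± 0.24 higher, and the collagens and Sparc lay from -0.40 ± 0.50 (Col1a1) to 0.12 ± 0.28 (Sparc), all without a call.

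No member was called in the response of AD thymus (0.546% of genes were) or of Null thymus (0.131%). In AD the differences were 0.31 ± 0.29 for Ccn1, -0.14 ± 0.34 for Thbs1 and -0.78 ± 0.31 for Ccn2, and in Null they were 0.65 ± 0.34, 0.37 ± 0.39 and 1.05 ± 0.40. The Null response rests on 2 basal mice. As a difference of responses, Het exceeded Null in 2 members (2.37% of genes called higher), Ccn1 by 4.15 ± 0.44 and Thbs1 by 3.30 ± 0.51. Het exceeded AD in 3 members (2.94% called higher), Ccn1 by 4.49 ± 0.41, Thbs1 by 3.81 ± 0.48 and Ccn2 by 2.10 ± 0.44. For Ccn2 the excess of Het over Null was 0.27 ± 0.50, and its level in basal Null thymus was the lowest of all 13 groups. The responses of AD and Null did not differ by a call in any member or gene (0%), and 972 genes had an unadjusted p under 0.05, of which 1 was a member.

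In basal thymus most members stood lowest in the 2 Null mice. For 7 of 9 members, all but Ccn1 and Thbs2, both Null libraries lay below all 3 Het libraries and below all 3 AD libraries, where 9.31% of genes had Het and 10.4% had AD wholly above Null. Both statements use the same 2 Null libraries. Calls were fewer. Col5a1 was called higher in Het (0.77 ± 0.12, or 1.70-fold, with 0.0406% of genes called higher) and Fn1 was called higher in AD (0.66 ± 0.11, or 1.58-fold, with 0.0361% called higher).

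Col5a1 stood at 12.7 and 15.9 CPM in Null, at 20.6, 24.4 and 26.7 CPM in Het and at 21.9, 25.5 and 21.2 CPM in AD. Fn1 stood at 39.0 and 50.3 CPM in Null, at 58.8, 63.8 and 75.5 CPM in Het and at 71.2, 68.7 and 69.3 CPM in AD. Ccn2 stood at 0.669 and 0.872 CPM in Null, at 1.37, 2.67 and 1.79 CPM in Het and at 2.98, 3.50 and 1.75 CPM in AD. For these 3 genes Null-859 was the lower of the Null libraries, and Het and AD overlapped.

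The largest differences in basal thymus were those of Ccn2, 1.36 ± 0.35 in Het and 1.85 ± 0.35 in AD, and of Col1a1, 1.09 ± 0.33 and 1.002 ± 0.33. Col3a1 differed by 0.79 ± 0.17 and 0.68 ± 0.17, Sparc by 0.75 ± 0.18 and 0.73 ± 0.18, and Thbs1 by 0.46 ± 0.16 and 0.62 ± 0.16. None of these was called in the fit of all 3 groups. How many members were called depended on the method: DESeq2 called 5 in Het and 6 in AD, and the fit without a filter on low counts also called 5 and 6. With only the 2 groups compared in the fit the count was 4 in AD. The shares of all genes given above belong to the filtered edgeR fit of all 3 groups. Shares under the other settings are not given here, so these counts cannot be set against all genes. In Het the count was 0 without either Null library, without Het-855 or Het-703, or with a sex covariate, and 4 without Het-697. The difference of Col5a1 stayed at 0.64 to 0.91 with a library left out and was 0.77 with the sex covariate. In AD the count of called members was 0 without AD-700, AD-701 or Null-859, and without AD-702 Ccn2 was called (2.10) and Fn1 was not. The difference of Fn1 was 0.51 to 0.83 with a library left out. Het and AD did not differ by a call in any member or gene (0%, with 775 genes at an unadjusted p under 0.05, of which 1 was a member), and the largest difference was that of Ccn1, 0.56 ± 0.22 higher in AD.

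Markers of some other cell types moved with these values and those of others did not. The 10 adipocyte markers summed to 111 to 116 CPM in basal Null thymus, 144 to 392 CPM in Het and 286 to 362 CPM in AD, with 0 called, none at 0 and medians of 1.33 in Het and 1.52 in AD. Fibroblast markers without Thy1 summed to 333 to 380, 390 to 489 and 423 to 475 CPM, with 0 of 15 tested genes of the full list called and medians of 0.42 in Het and 0.32 in AD. Endothelial markers summed to 132 to 141, 137 to 166 and 159 to 171 CPM, with 0 of 12 called and medians of 0.53 and 0.51. Pericyte and smooth muscle markers summed to 110 to 136, 136 to 164 and 132 to 141 CPM. Macrophage markers summed to 257 to 312, 270 to 308 and 279 to 304 CPM, and the groups overlapped. Markers of thymic epithelium summed to 1100 to 1320, 1150 to 1240 and 1090 to 1310 CPM, also with overlap. The medians over all genes were 0 and -0.003, and the part of these cells in the members' values was not tested. Among the 16 other collagens 0 were called, with medians of 0.43 and 0.35.

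The members were then read for how they varied among mice of one group. Group means of log2 CPM were subtracted in the 24 thymus libraries, which leaves 17 degrees of freedom, and the correlations are descriptions over libraries that share tissue and processing. Among Col1a1, Col3a1, Col5a1 and Sparc the 6 correlations were 0.87 to 0.98. Among Ccn1, Ccn2 and Thbs1 the 3 were 0.45 to 0.67, and between these 2 sets the 12 were 0.39 to 0.66. Fn1 correlated at 0.63 to 0.82 with the collagens and Sparc, and at 0.76 with Thbs1, 0.53 with Ccn1 and 0.36 with Ccn2. Thbs2 was the least tied to the rest, at 0.09 to 0.53 with the other 8 members.

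The collagens and Sparc also followed the cell markers. The residual of Sparc correlated at 0.91 with the mean of the fibroblast markers, at 0.92 with that of the endothelial markers and at 0.87 with that of the pericyte markers, at 0.81 with that of the adipocyte markers and at -0.12 with that of thymic epithelium. For Ccn1 the same 5 values were 0.50, 0.46, 0.64, 0.19 and 0.01. The ratio of Col5a1 to Col3a1 per kb was 0.0959 to 0.105 on average in all 7 thymus groups, so its group means differed little. In single thymus libraries it ran from 0.0844 (irradiated Null) to 0.123 (irradiated Het). The ratio of Col1a1 to Col3a1 per kb was 0.229 to 0.383 on average, with RP-649 highest at 0.656.

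**Figure D3:**
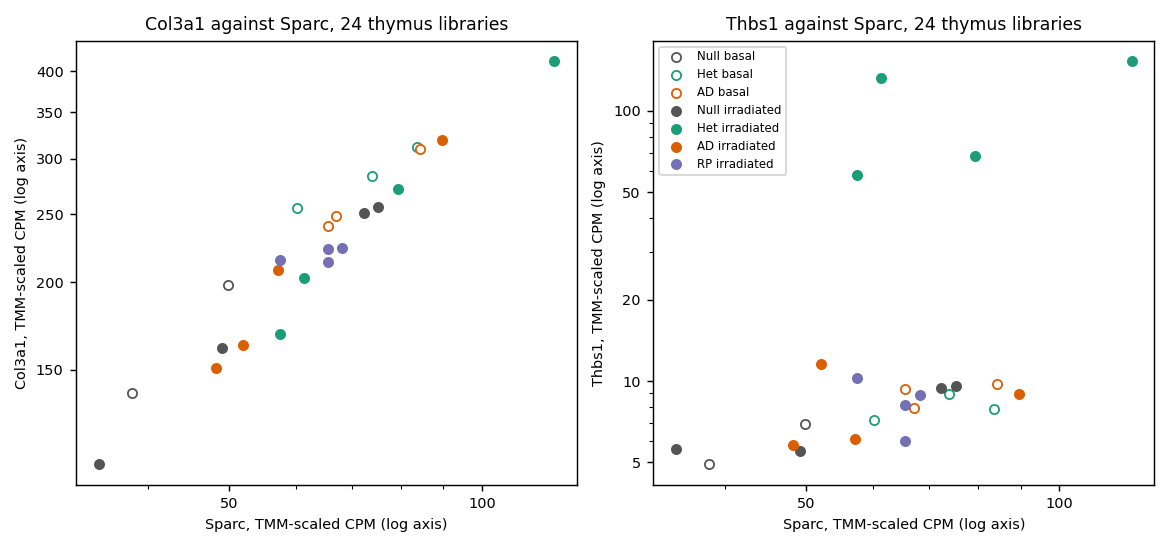
Col3a1 (left) and Thbs1 (right) against Sparc in the 24 thymus libraries, as TMM-scaled CPM on log axes; colours are genotypes, filled points irradiated and open points basal thymus. Col3a1 follows Sparc through all groups (residual correlation 0.98), while the 4 irradiated Het libraries lie at 58.1 to 153 CPM of Thbs1, above libraries of like Sparc level.

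A few thymus libraries held more of the gene Alb than the rest. AD-727, the irradiated AD library with the highest values of Fn1 (84.7 CPM), Col3a1 (319 CPM) and Sparc (89.7 CPM), held 120 CPM of the liver gene Alb, against 0.18 to 2.58 CPM in 20 other thymus libraries and 122000 to 180000 CPM in liver. RP-653 held 27.4 CPM of Alb and RP-656 9.71 CPM. Alb and RP-649's Col1a1 were singled out after their values were seen. Without AD-727 the count of members called in AD against Null was 0, as with that library. Whether these libraries held other tissue, and any part of it in the members' values, was not tested.

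Levels were next compared between the basal tissues of AD and Null mice, with both genotypes weighted equally and 6 libraries per tissue (5 for thymus). The 4 tissues differ in RNA makeup: the TMM factors of thymus were 1.38 to 1.53, those of intestine 0.94 to 1.05, those of liver 0.55 to 0.62 and those of pancreas 0.35 to 0.41. With total counts in place of TMM the median log2 difference over all genes was 0.51 to 2.22 over the 6 tissue pairs, where under TMM it was -0.13 to 0.53. Several orders between tissues below turn with that choice and are named where they do.

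Fn1 was a liver transcript in these organs, as is known for plasma fibronectin made by hepatocytes. Liver held 2450, 3790 and 2310 CPM in Null and 3320, 2770 and 3090 CPM in AD, against medians of 204 CPM in intestine, 152 in pancreas and 68.7 in thymus. Liver exceeded pancreas by 4.12 ± 0.16 (adjusted p = 2.1e-17 by edgeR), and intestine differed from liver by -3.85 ± 0.16 (adjusted p = 5.43e-17). Thymus, given without a p-value because its libraries had a part in the choice of members, differed from liver by -5.69 ± 0.20. The lowest liver library was above every library of the other organs. With total counts alone the liver median was 1770 CPM and still the highest.

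Thbs1 had the reverse pattern, with a median of 4.96 CPM in liver (range 3.43 to 8.68), 49.5 in intestine (40.0 to 58.6) and 40.0 in pancreas (34.2 to 55.1). Intestine exceeded liver by 3.27 ± 0.15 and liver fell below pancreas with a difference of -3.13 ± 0.15 (adjusted p = 6.09e-16 and 2.11e-15 by edgeR). Basal thymus, at 7.95 CPM, stood 0.54 ± 0.15 above liver, near the median of all genes in that pair, 0.53. Irradiated Het thymus, at a mean of 103 CPM, was the group with the highest Thbs1 of all 13, although its lowest library (58.1 CPM) lay below the highest intestine library (58.6 CPM).

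Ccn1 and Ccn2 were scarce in every basal tissue. Ccn1 reached a median of 10.3 CPM in liver, 4.62 in intestine, 3.35 in thymus and 3.19 in pancreas, and liver exceeded intestine (difference of intestine from liver -1.16 ± 0.19, adjusted p = 8.54e-06) and pancreas (1.76 ± 0.22, adjusted p = 1.3e-07). Under total counts alone the first of these was -0.40 and not called. Ccn2 had medians of 9.70 CPM in liver, 6.19 in pancreas, 4.50 in intestine and 1.75 in thymus. Liver and pancreas did not differ by a call (0.54, adjusted p = 0.0506 by edgeR), and intestine stood below liver by a call under TMM (-1.18 ± 0.23) and without one under total counts (-0.40). Intestine stood below pancreas under TMM (-0.64 ± 0.24), a call lost without AD-700 or Null-859 of intestine, and above it under total counts (0.90). Thymus differed from pancreas by -2.12 under TMM and by -0.09 without a call under total counts. The irradiated Het level of Ccn1, 60.3 CPM on average, was above all 38 other libraries, while that of Ccn2, 4.93 CPM, was within the range of basal intestine and pancreas.

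Among the fibres, Col3a1 was the most abundant of the 3 collagens per kb of exon in every tissue. Its medians were 106 CPM per kb in pancreas, 88.1 in intestine, 42.6 in liver and 24.6 in thymus, and those of Col1a1 were 40.6, 35.2, 8.10 and 6.45. Col5a1 held 11.8, 10.5, 7.77 and 2.49 CPM per kb. Sparc was at 80.2 in liver, 73.3 in pancreas, 47.6 in intestine and 17.3 in thymus. Col1a1, Col3a1 and Col5a1 stood higher in intestine than in liver by 2.24 ± 0.20, 1.03 ± 0.13 and 0.40 ± 0.10 (adjusted p = 3.65e-09, 1.31e-07 and 0.000901), and Sparc differed by -0.77 ± 0.09 (adjusted p = 3.66e-08). Under total counts that difference of Sparc was -0.008 without a call, with medians of 184 CPM in intestine and 178 in liver.

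Intestine and pancreas could not be ordered for the fibres, because Col1a1, Col3a1, Col5a1 and Sparc had values from -0.72 to -0.09 under TMM and from 0.83 to 1.44 under total counts. Liver against pancreas turned for Col5a1 (-0.60 ± 0.10 under TMM and 0.18 under total counts). Thbs2 stood at 4.82 to 16.9 CPM in the basal tissues, and on the TMM scale between its groups taken in order of mean level no neighbours failed to overlap.

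In counts, 8 of 9 members differed between intestine and liver (70.5% of genes were called), 5 between intestine and pancreas (64.3%) and 7 between liver and pancreas (65.3%). All 9 were lower in thymus than in intestine (35.3% of genes called lower), and 7 without Null-859 of thymus, where Ccn1 (-0.43) and Thbs2 (-0.38) lost their calls, or under total counts, where Ccn1 (-0.16) and Thbs2 did. Under TMM 8 differed between thymus and liver, with Thbs1 alone higher in thymus (79.3% called), and 7 were lower in thymus than in pancreas (31.5% called lower). Under total counts alone 9 were called between intestine and pancreas. For Col1a1 and Col3a1 against liver and for Fn1 and Ccn1 against pancreas, and for Thbs2 against liver and intestine, the thymus value turned above 0 under total counts.

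**Figure D4:**
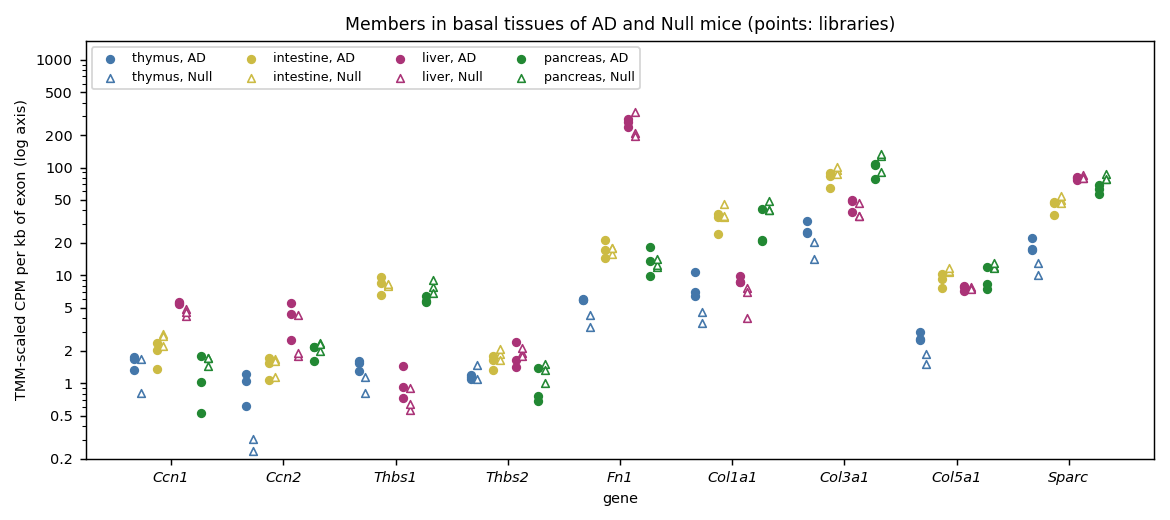
Level per kb of exon (TMM-scaled CPM per kb, log axis) of each member in basal thymus, intestine, liver and pancreas of AD (filled circles) and Null (open triangles) mice; each point is a library. Fn1 stands highest in liver and Thbs1 lowest in liver, while AD and Null points of one tissue lie close together for most members.

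AD and Null were compared within basal intestine, liver and pancreas, groups whose libraries had no part in the choice of members. All of these mice but Null-1087 also gave the basal thymus libraries that did, so the mice are not independent of that choice. By edgeR 0 members were called in intestine (0.015% of genes were), 0 in liver (0.267%) and 0 in pancreas (0.0548%), and 1, 1 and 4 members had an unadjusted p under 0.05. In intestine, liver and pancreas 2, 7 and 1 of the 9 members had AD above Null, with medians of -0.23, 0.27 and -0.41, and members that vary together are not independent.

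In pancreas Thbs1 stood at 34.9, 34.2 and 38.7 CPM in AD and at 47.8, 55.1 and 41.3 CPM in Null, without overlap, and differed by -0.44 ± 0.16 (adjusted p = 0.479 by edgeR). Sparc, at 214, 262 and 239 against 297, 329 and 294 CPM, was the other member without overlap, and differed by -0.38 ± 0.16 (adjusted p = 0.56). Col1a1 held 137, 139 and 269 CPM in AD and 323, 266 and 267 CPM in Null, a difference of -0.66 ± 0.25 (adjusted p = 0.554). AD-702 was the high AD library, and without it the difference of Col1a1 was -1.08 (adjusted p = 0.0179), the only call among the members then, and it was also called without a filter on low counts (-0.65). The 2 of 9 members with AD wholly below Null compare with 6.12% of genes. Endothelial markers summed to 275 to 353 CPM in AD and 336 to 391 in Null pancreas, and pericyte markers to 116 to 158 against 161 to 251, with 0 called. Not all lists were lower in AD. Fibroblast markers without Thy1 summed to 850 to 1080 against 848 to 1100 CPM and macrophage markers to 130 to 190 against 155 to 174. Adipocyte markers summed to 80.2 to 227 against 91.0 to 117 CPM. The part of these cells in the members' values was not tested.

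In liver Col1a1 stood at 56.7, 56.7 and 64.1 CPM in AD and 49.7, 46.3 and 26.2 CPM in Null, a difference of 0.59 ± 0.21 (adjusted p = 0.457 by edgeR), and without a filter on low counts it was called. Ccn1, at 11.4, 11.2 and 10.9 against 8.50, 9.75 and 9.32 CPM, differed by 0.33 ± 0.18 (adjusted p = 0.609). These 2 of 9 members had AD wholly above Null, against 5.55% of genes. In intestine Col5a1, at 65.0, 87.4 and 78.6 against 90.8, 93.5 and 100 CPM, was the 1 member with AD wholly below Null (6.32% of genes), at -0.30 ± 0.12 (adjusted p = 0.793).

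Whether the AD difference itself varied with tissue was tested as an interaction. Between liver and pancreas 0 members were called (0.0737% of genes were), with Col1a1 at 1.21 ± 0.38 (adjusted p = 0.25 by edgeR) and Thbs1 at 0.99 ± 0.29 (adjusted p = 0.206). Without AD-702 of pancreas Col1a1 was called there. Between intestine and liver (0.0327% of genes called) and between intestine and pancreas (0.00819%) 0 members were called, and 1 and 0 members had an unadjusted p under 0.05, against 3 between liver and pancreas.

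**Figure D5:**
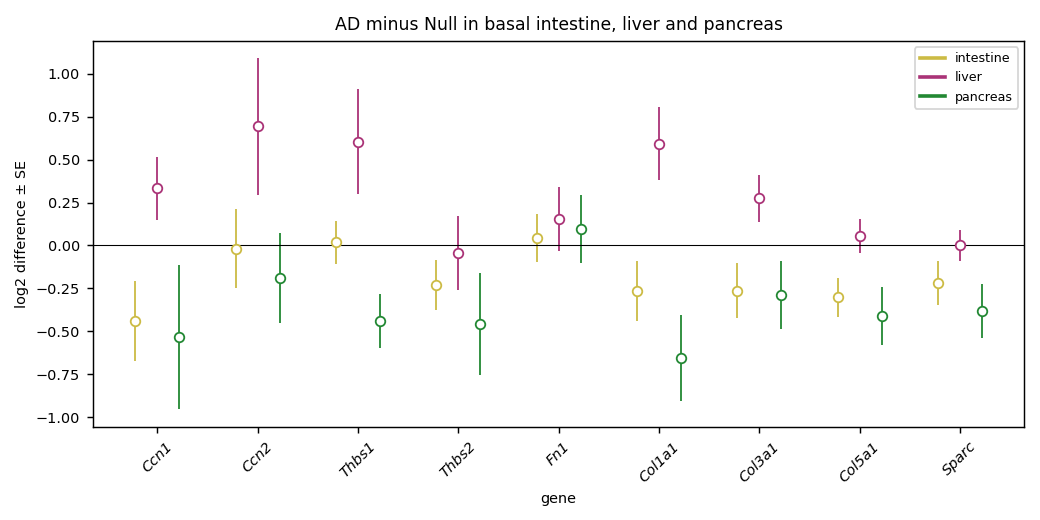
Log2 difference of AD from Null (vertical axis, ± SE) for each member in basal intestine, liver and pancreas, 3 mice a group; open points were not called. No member was called, and Col1a1 lies at 0.59 in liver and -0.66 in pancreas.

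The genes most like each member in pattern were taken as those with the highest Pearson correlation of group mean log2 CPM over the 13 groups, among 17579 genes. For Ccn1 they were the repair nuclease Ercc5 (0.92), the stress gene Sesn2 (0.89) and F3 (0.88), and for Thbs1 they were Cdkn1a (0.93), Dnm3 (0.92) and Zfp703 (0.90). Ccn2 was most like Adamts1 (0.95), Mmrn2 (0.94) and Nos3 (0.93), and Fn1 like Serping1 (0.996), Gch1 (0.99) and Cebpa (0.99). Col3a1 was nearest to its fibril partner Col5a2 (0.99), Lzts2 (0.99) and Col1a2 (0.99), and Col1a1 to Mfap4 (0.98), Fkbp10 (0.98) and Col1a2 (0.97). Col5a1 was nearest to Col4a5, Col4a1 and Col4a2 (0.99 each), Sparc to Esam, Nfib and Flt1 (0.99 each) and Thbs2 to Fst (0.96), Palld (0.95) and Hk3 (0.94). The 13 points span 4 organs and share libraries' processing. They include irradiated Het thymus, the group highest in Ccn1 and Thbs1 and the one by which both were chosen. The genes most like these members are therefore set in part by that choice. Between members the same measure was 0.95 for Col1a1 with Col3a1 and 0.30 for Ccn1 with Thbs1.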

How the data were processed

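The deposited table holds the authors' whole-number counts per Ensembl gene in 42 libraries of total RNA, with no library pooled. The submitters' processing notes name STAR 2.6.0b, DESeq2 and the build GRCm38. Which counter, strand setting and annotation the authors used is not given in the sources used here, and sex and irradiation dose were not in the labels used here. Each column was tied to a library through the mouse number, genotype and organ in its name; 8 basal thymus columns name no tissue and were the only columns left for those animals. Symbols came from GENCODE M21, which matched 49326 identifiers and missed 259. Promoter sequences came from RefSeq on GRCm38.p6, which held 5 of the 9 members (Ccn1, Col3a1, Col5a1, Sparc and Thbs2), without Ccn2, Thbs1, Fn1 and Col1a1.

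The members and the gene lists were chosen with earlier results of these data known. Counts were fitted with edgeR 4.0.16 in R 4.3.3 (filterByExpr, TMM, robust quasi-likelihood F tests, Benjamini-Hochberg over all genes tested, called under 0.05), separately for irradiated thymus, basal thymus, all thymus, each other basal tissue, and the AD and Null groups of all 4 tissues. A run of the fits on simulated counts used the same dispersion for all genes, and its outcome is not given here. CPM were computed from TMM-scaled library sizes over all 42 libraries, log2 CPM with a prior count of 2, and values per kb with the summed exon length of M21. Named genes were the members, Trp53 and Cdkn1a, up to 3 called genes per list and direction by size of difference (mean log2 CPM no lower than 1), and the 3 genes most like each member. A gene that this rule names is not reported here. Alternatives were RLE scaling, no filter, DESeq2 1.42.0, only the groups compared, a sex covariate from Xist, a replicate block for mouse, each library left out in turn and, added after the data were seen, total counts without TMM. Mice are separate animals by number, but p-values cover only the spread among these few mice. Same-numbered libraries of different tissues come from the same mouse per the labels: over 33 such pairs the correlation of residuals had a median of 0.063 (-0.129 to 0.344, 12 pairs above 0.1, 10857 genes). Total counts, in units of M (mega), were 26.4 to 33.3 (irradiated thymus), 27.8 to 31.9 (basal thymus), 24.3 to 34.8 (intestine), 26.0 to 32.5 (liver) and 19.9 to 24.8 (pancreas).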

Additional observations from a re-analysis of the deposited data

Results flagged for a closer look

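In 3 members, values differed between genotypes by the test of the difference of irradiation responses in thymus (edgeR, called under an adjusted p of 0.05). They are given as values only, since Ccn1 and Thbs1 were chosen by their irradiated Het thymus libraries. The response of Het exceeded that of AD by 4.49 ± 0.41 in Ccn1, by 3.81 ± 0.48 in Thbs1 and by 2.10 ± 0.44 in Ccn2. It exceeded that of Null by 4.15 ± 0.44 in Ccn1 and by 3.30 ± 0.51 in Thbs1. For the 9 members in the 4 irradiated thymus groups, the only groups with 4 libraries, 36 sets of values were searched for a library apart from the rest and 0 met the criterion, where chance gives about 1 in 20.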

How the results depend on the processing

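Counts of called members in basal thymus depended on the method, and the share of all genes called under each alternative is not given here. For AD against Null the count of 1 became 6 under DESeq2, 6 without a filter and 4 with only the 2 groups in the fit, and 0 to 1 with a library left out. For Het against Null the count of 1 became 5 under DESeq2, 5 without a filter, 0 with the sex covariate and 0 to 4 with a library left out. For AD against Null the count of 0 became 1 without a filter in liver and in pancreas (Col1a1 in both), and was 0 to 1 in pancreas and in the interaction of liver with pancreas with a library left out. With mouse as a replicate block the tissue counts were unchanged (8, 5, 7, 9, 8 and 7 for the 6 pairs, and 0 for each interaction). In irradiated thymus Ccn1, Thbs1 and Ccn2 kept their calls between Het and Null under all 13 alternatives, with 3.76 to 4.26, 3.49 to 3.97 and 1.49 to 1.79 over the libraries left out, and Fn1 lost its call under 5. With total counts in place of TMM 9 members were called between intestine and pancreas, and these differences changed sign: intestine against pancreas for Ccn2 (0.90), Col1a1 (1.44), Col3a1 (1.14), Col5a1 (1.34) and Sparc (0.83), thymus against pancreas for Ccn1 (1.97) and Fn1 (0.47), thymus against liver for Col1a1 (0.92), Col3a1 (0.32) and Thbs2 (0.66), liver against pancreas for Col5a1 (0.18), intestine against liver for Thbs2 (0.64) and thymus against intestine for Thbs2 (0.016). The cause was not tested. With 31 to 216 reads of Ccn2 per thymus library, its differences within thymus have the widest counting error. In pancreas Ccn1 had fewer reads, 8 to 32 per AD library and 21 to 28 per Null library.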

Other observations

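RP-649, the irradiated RP thymus with the highest Col1a1 (93.9 CPM), also held the highest thymus values of 3 genes looked up after that value was seen. They are the cartilage and bone collagen Col11a1 (1.23 CPM against 0.0222 to 0.637 in the other 23 thymus libraries), bone sialoprotein Ibsp (0.617 against 0 to 0.369) and osteocalcin Bglap2 (0.366 against 0 to 0.0863). Col1a2, looked up in the same way, was not highest in RP-649, at 103 CPM against 119 CPM in Het-631 and 112 CPM in AD-727. The Col3a1 (214 CPM) and Sparc (65.5 CPM) of RP-649 lay within the range of the other thymus libraries.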
